A study of Mus musculus with 22 samples.

Results

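The genes described here are 7 enzymes and regulators of liver glucose output and glycogen storage: pyruvate carboxylase (Pcx), phosphoenolpyruvate carboxykinase 1 (Pck1), fructose bisphosphatase 1 (Fbp1), the glucose-6-phosphatase catalytic subunit (G6pc), liver glycogen synthase (Gys2), liver glycogen phosphorylase (Pygl) and the transcriptional coactivator Ppargc1a. They were taken by name from the table of deposited values, where 7 of 7 were found among 18716 rows. RNA was from whole frozen livers of mice labelled Fah-/-, named for the gene of fumarylacetoacetate hydrolase, which ends the breakdown of tyrosine. The first group, YC, holds 7 livers that had received hepatocytes labelled td and an agent labelled YC, and that were taken 28 days after NTBC was withdrawn. NTBC blocks an earlier enzyme of tyrosine breakdown and so protects livers without Fah. The second, vehicle, holds 8 livers that had received td hepatocytes and vehicle, at the same 28 days after withdrawal. The third, D0, holds 7 livers on day 0, labelled as normal liver of the same Fah-/- genotype. D0 livers differ from both other groups in the transplant, NTBC withdrawal and the day at once. These cannot be told apart in any comparison with D0 livers. A transplanted liver may be a mixture of host and donor cells, of shares that the labels do not give. The labels number the livers but do not state whether they are separate animals, and p-values therefore speak only to the spread among these libraries, some of which may be technical.

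Gluconeogenesis makes glucose from lactate, amino acids and glycerol by running glycolysis backwards around its irreversible steps. Pcx turns pyruvate into oxaloacetate in the mitochondrion, Pck1 turns oxaloacetate into phosphoenolpyruvate, Fbp1 removes a phosphate from fructose 1,6-bisphosphate, and G6pc releases free glucose from glucose 6-phosphate. Gys2 lengthens glycogen chains after feeding and Pygl cuts them during fasting. In fasting, glucagon acts through cAMP and CREB, and falling insulin frees forkhead factors of the FOXO family. Both routes are known to raise Pck1 and G6pc in hepatocytes, with Ppargc1a as a coactivator that CREB itself induces.

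The promoters of 6 of the 7 genes were matched by symbol in RefSeq sequences of GRCm38.p6, the build that mm10 also denotes, as 7 windows with 250 bases before and 50 bases after the annotated start, since Pcx has a pair of starts. Gys2 was not matched. The 4 motifs searched, each on both strands, were the cAMP response element half-site CGTCA, which 20.8% of all 32851 promoters of the same length hold, the forkhead motif TGTTTNC (20.5%), the HNF4 motif CAAAGTNCA (1.4%) and the TATA box TATAAA (13.6%). None of the 4 letter strings overlaps another in these windows. Pck1, G6pc and Ppargc1a are shown because these genes had higher levels in vehicle livers than in D0 livers, past the test, and their windows are in the table. Each is written 5′ to 3′ on the strand of its gene, with motif matches in capitals. The Pck1 window is chr2:173152823-173153122 on the plus strand, the G6pc window chr11:101367466-101367765 on the plus strand, and the Ppargc1a window chr5:51567676-51567975 on the minus strand.
Pck1: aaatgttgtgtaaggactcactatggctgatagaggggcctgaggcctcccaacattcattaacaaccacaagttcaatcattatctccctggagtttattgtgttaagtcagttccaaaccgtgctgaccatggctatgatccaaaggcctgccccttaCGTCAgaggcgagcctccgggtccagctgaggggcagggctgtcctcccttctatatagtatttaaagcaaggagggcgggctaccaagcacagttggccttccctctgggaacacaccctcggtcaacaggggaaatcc
G6pc: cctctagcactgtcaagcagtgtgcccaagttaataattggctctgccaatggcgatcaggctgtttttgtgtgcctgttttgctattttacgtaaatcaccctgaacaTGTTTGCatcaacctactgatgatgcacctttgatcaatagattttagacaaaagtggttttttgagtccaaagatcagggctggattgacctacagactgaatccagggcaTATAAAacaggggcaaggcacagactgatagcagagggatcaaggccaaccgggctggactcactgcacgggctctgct
Ppargc1a: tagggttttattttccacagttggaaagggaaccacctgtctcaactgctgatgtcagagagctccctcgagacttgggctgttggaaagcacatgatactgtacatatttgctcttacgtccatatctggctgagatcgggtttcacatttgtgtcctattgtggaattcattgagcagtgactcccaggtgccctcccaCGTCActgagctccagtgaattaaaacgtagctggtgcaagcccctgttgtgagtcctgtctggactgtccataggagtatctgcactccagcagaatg
The capitals in Pck1 mark CGTCA at -90 to -86 from the start. Those in G6pc mark the forkhead match TGTTTGC at -141 to -135 and a TATA box at -29 to -24. In Ppargc1a, CGTCA stands at -49 to -45. Pygl, the glycogen phosphorylase, also holds CGTCA, at -44 to -40. These letters were not found in the window of Fbp1 or in either window of Pcx, and the HNF4 letters were in none of the 7 windows. A match of this kind is a description of the letters and not of binding.

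In the GENCODE annotation of the same build, Pcx lies on the plus strand of chr19:4510472-4621752, Pck1 on the plus strand of chr2:173153048-173159273, Fbp1 on the minus strand of chr13:62864753-62888282 and G6pc on the plus strand of chr11:101367561-101377903. Gys2 lies on the minus strand of chr6:142422613-142473109, Pygl on the minus strand of chr12:70190811-70231488 and Ppargc1a on the minus strand of chr5:51454250-51567726. Each interval covers the whole gene, with its exons, introns and UTRs.

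Values are RPKM, reads divided by gene length and by library size, in the form the authors deposited. Depths recovered from the steps of low values lay between 50400000 and 82800000 reads in YC livers, between 51000000 and 72100000 reads in vehicle livers and between 51000000 and 66400000 reads in D0 livers. The summed RPKM of 10 hepatocyte markers ran between 36742 and 70294 in YC livers, between 72225 and 105646 in vehicle livers and between 58969 and 78099 in D0 livers, so the YC livers lay below every vehicle liver. The summed level of 5 bile duct markers ran between 29.8 and 77.4 in YC livers, 11.9 and 35.7 in vehicle livers and 4.74 and 9.83 in D0 livers, that of 5 neutrophil markers between 30.5 and 345, 35.7 and 137, and 3.60 and 49.4 in the same order. The summed level of 6 Kupffer cell and macrophage markers ran between 210 and 504 in YC livers and between 265 and 765 in vehicle livers, all above D0 livers at 87.5 to 156. That of 5 stellate cell markers ran between 118 and 545 in YC livers, 121 and 313 in vehicle livers and 89.0 and 126 in D0 livers. Markers of sinusoidal endothelium ran between 93.9 and 193, 113 and 213, and 79.4 and 150.1 in the same order of groups, and lymphocyte markers between 2.18 and 6.15, 3.20 and 18.8, and 2.35 and 6.04 (5 markers each). There were 0 markers of any list at 0 in every library. In whole-liver RNA, fewer cells of a type and less RNA per cell cannot be told apart, and the part of these shifts in the results below was not tested. Over all 12537 genes tested, the median log2 difference was 0.31 for YC minus vehicle, 0.25 for YC minus D0 and 0.01 for vehicle minus D0. Scaling each library by its median ratio to the others brought these to 0.01, -0.05 and 0.01. It changed the genes called for YC minus vehicle to 2280 higher and 2098 lower, against 5587 higher and 770 lower as deposited. For YC minus D0 it gave 3238 higher and 3587 lower, against 5162 higher and 1537 lower.

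Fah, the gene named by the genotype, had 31.5 to 407 RPKM in YC livers (median 128), 271 to 542 in vehicle livers (median 401) and 21.1 to 38.8 in D0 livers (median 28.6). All 8 vehicle livers lay above all D0 livers, and 6 of 7 YC livers did. YC 7, at 31.5, lay within the D0 range and YC 6, at 41.3, just above it. The labels do not say which part of Fah is deleted, so the reads in D0 livers do not check the genotype. Where leaving out YC 6 and YC 7 moved a difference by over 1.5 times, changed its sign or changed a call, the value without them is given below. These livers were picked from the data, so a p-value without them describes the dependence on them and is no separate test.

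In RPKM, which is scaled to gene length, the order of the mean levels in YC livers was Pck1, Fbp1, Pcx, Pygl, G6pc, Gys2 and Ppargc1a. In vehicle livers it was Pck1, Fbp1, G6pc, Pygl, Pcx, Gys2 and Ppargc1a, and in D0 livers Fbp1, Pygl, Pcx, G6pc, Pck1, Gys2 and Ppargc1a. Pck1 thus headed the list in both transplanted groups and was the fifth in D0 livers. Most neighbours in these orders had overlapping ranges over livers. The pairs that did not overlap were Gys2 above Ppargc1a in all 3 groups, Fbp1 above G6pc in vehicle livers (at least 420 RPKM beside at most 323) and Fbp1 above Pygl in D0 livers (at least 406 beside at most 168).

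All 7 genes passed the filter on low values, at least 0.5 RPKM in at least 7 libraries. Against D0 livers, 4 of 7 were called higher in vehicle livers and 0 lower by limma on log2(RPKM + 0.5) with Benjamini-Hochberg adjustment over all genes tested, where 28.2% of all genes were called higher and 29.9% lower. In YC livers 3 of 7 were called higher than in D0 livers and 1 lower, where 41.2% of all genes were called higher and 12.3% lower. Between YC and vehicle livers 0 of 7 were called higher and 1 lower, beside 44.6% and 6.14% of all genes. Without vehicle 1, 4 of 7 were called lower. For this fit and the next one the shares of all genes called are not given. Without YC 6 and YC 7 the counts were 1 higher and 1 lower between YC and vehicle livers, and 4 higher and 1 lower between YC and D0 livers. With median-ratio scaling of all livers the count between YC and vehicle livers was 0 higher and 4 lower, beside 18.2% and 16.7% of all genes, and that for YC minus D0 was 2 higher and 1 lower, beside 25.8% and 28.6%. The median log2 difference over the 7 genes was -0.48 for YC minus vehicle, 0.78 for vehicle minus D0 and 0.55 for YC minus D0.

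**Figure D1:**
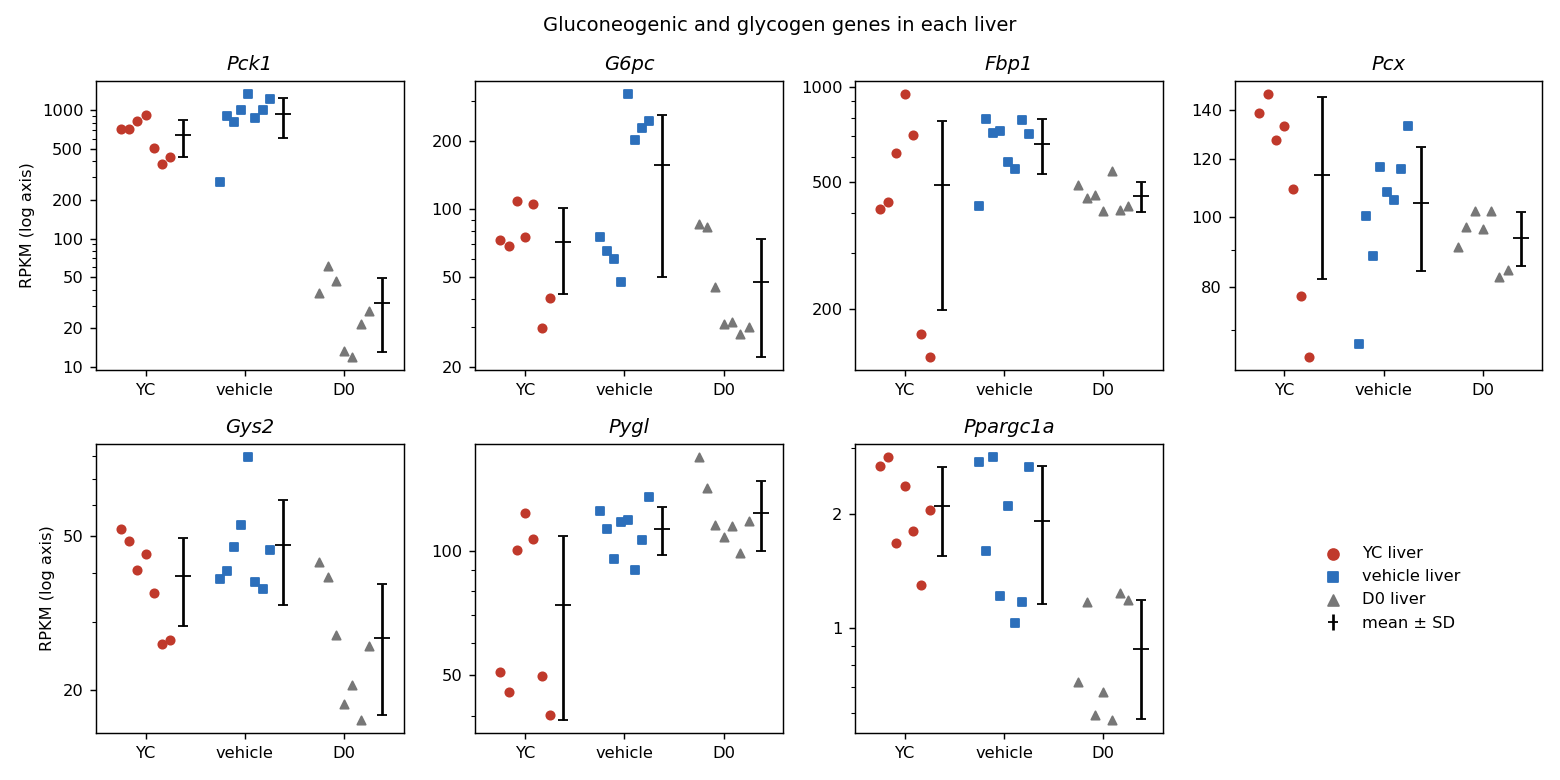
RPKM (log axis) of each of the 7 genes in every liver, by group, with YC at the left, vehicle in the middle and D0 at the right. Points are livers, and bars are the group mean ± SD. Pck1 lay at 379 to 917 in YC livers and 274 to 1333 in vehicle livers, above all D0 livers at 11.9 to 61.4.

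Pck1, the cytosolic enzyme that commits oxaloacetate to glucose synthesis, differed most among the 7 genes. It had 379 to 917 RPKM in YC livers (median 709), 274 to 1333 in vehicle livers (median 953) and 11.9 to 61.4 in D0 livers (median 27.5). Neither transplanted group met the D0 range, and they overlapped each other. Vehicle livers (n = 8) averaged 927 ± 319 RPKM of Pck1 and D0 livers (n = 7) 31.4 ± 18.2 (SD), a log2 difference of 4.96 ± 0.34 (SE, limma adjusted p = 1.09e-10), or 31.2-fold on the scale of RPKM + 0.5. YC livers averaged 640 ± 204 (SD, n = 7), 4.48 ± 0.35 above D0 livers on the log2 scale (limma adjusted p = 3.97e-10), or 22.3-fold. The difference between YC and vehicle livers, -0.48 ± 0.34, did not pass the test (limma adjusted p = 0.234). Vehicle 1, at 274, was far below the other vehicle livers, which began at 805. Without it, Pck1 was called lower in YC livers, by a log2 difference of -0.72 (limma adjusted p = 0.0429). Without YC 6 and YC 7, the lowest of the YC livers, the difference was -0.25 (limma adjusted p = 0.588).

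Pcx supplies the oxaloacetate on which Pck1 acts, and it was the steadiest of the gluconeogenic enzymes. Its level was 64.2 to 147 RPKM in YC livers (median 127), 66.8 to 133 in vehicle livers (median 107) and 82.5 to 102 in D0 livers (median 96.3). The 3 ranges overlapped, and both extremes in YC livers lay outside the D0 range. The means were 114 ± 31.8 RPKM in YC livers, 104 ± 20.0 in vehicle livers and 93.5 ± 7.84 in D0 livers (SD, n = 7, 8 and 7). None of the 3 log2 differences passed the test, with 0.10 ± 0.17 for YC minus vehicle, 0.14 ± 0.17 for vehicle minus D0 and 0.23 ± 0.17 for YC minus D0 (limma adjusted p = 0.655, 0.499 and 0.269). YC 6 and YC 7 were the lowest of the YC livers, at 77.8 and 64.2. Without them, Pcx was called higher in YC livers, by 0.35 against vehicle livers and 0.48 against D0 livers on the log2 scale (limma adjusted p = 0.0366 and 0.00533). Leaving out the lowest livers of a group raises its mean, so these calls are not support for a rise. With median-ratio scaling of all livers YC minus vehicle and YC minus D0 changed sign, to -0.25 and -0.11.

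Fbp1, which undoes the phosphofructokinase step, varied widely in YC livers and little elsewhere. It had 141 to 948 RPKM in YC livers (median 433), 420 to 794 in vehicle livers (median 713) and 406 to 543 in D0 livers (median 445). YC livers reached both below and above the other groups, with a coefficient of variation of 59.5% in YC livers, 19.8% in vehicle livers and 11.0% in D0 livers. The mean was 489 ± 291 RPKM in YC livers, 661 ± 131 in vehicle livers and 453 ± 49.7 in D0 livers (SD, n = 7, 8 and 7). YC minus vehicle was -0.68 ± 0.30 on the log2 scale and missed the threshold (limma adjusted p = 0.0594), and without YC 6 and YC 7 it was -0.13 (adjusted p = 0.588). With median-ratio scaling it was -1.03 and was called (limma adjusted p = 0.0163), as it was with vehicle 1, YC 3, YC 4 or YC 5 left out in turn, at -0.77 to -0.89. Vehicle minus D0, 0.52 ± 0.30, did not pass either (limma adjusted p = 0.136), although 7 of 8 vehicle livers lay above all D0 livers. It passed, at 0.52, in a fit of those 2 groups alone (limma adjusted p = 0.0033). YC minus D0 was -0.16 ± 0.31 (limma adjusted p = 0.684) and 0.40 without YC 6 and YC 7.

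G6pc catalyses the last step of glucose release and had the widest spread in vehicle livers. Its level was 29.9 to 109 RPKM in YC livers (median 73.3), 47.6 to 323 in vehicle livers (median 139) and 28.1 to 85.9 in D0 livers (median 31.6). The vehicle livers left a gap, with vehicle 1 to 4 at 47.6 to 75.6 and vehicle 5 to 8 at 203 to 323. The first of these sets lay within the range of the D0 livers and the second above every liver of the other groups, and the labels name no batch that separates them. Means were 71.7 ± 29.6 RPKM in YC livers, 156 ± 106 in vehicle livers and 47.8 ± 25.7 in D0 livers (SD, n = 7, 8 and 7). Vehicle livers were higher than D0 livers by 1.51 ± 0.41 on the log2 scale (limma adjusted p = 0.00307), with 4 of 8 above all D0 livers. YC minus vehicle was -0.90 ± 0.41 (limma adjusted p = 0.0682), and leaving out vehicle 1, 2, 3 or 4 in turn brought it past the threshold, at -1.002 to -1.10 (limma adjusted p between 0.0284 and 0.0488). Median-ratio scaling did so too, at -1.25 (limma adjusted p = 0.0257). Without YC 6 and YC 7 it was -0.54 (limma adjusted p = 0.312). YC minus D0, 0.61 ± 0.42, did not pass (limma adjusted p = 0.231), nor did it without those livers, at 0.97 (limma adjusted p = 0.0715).

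**Figure D2:**
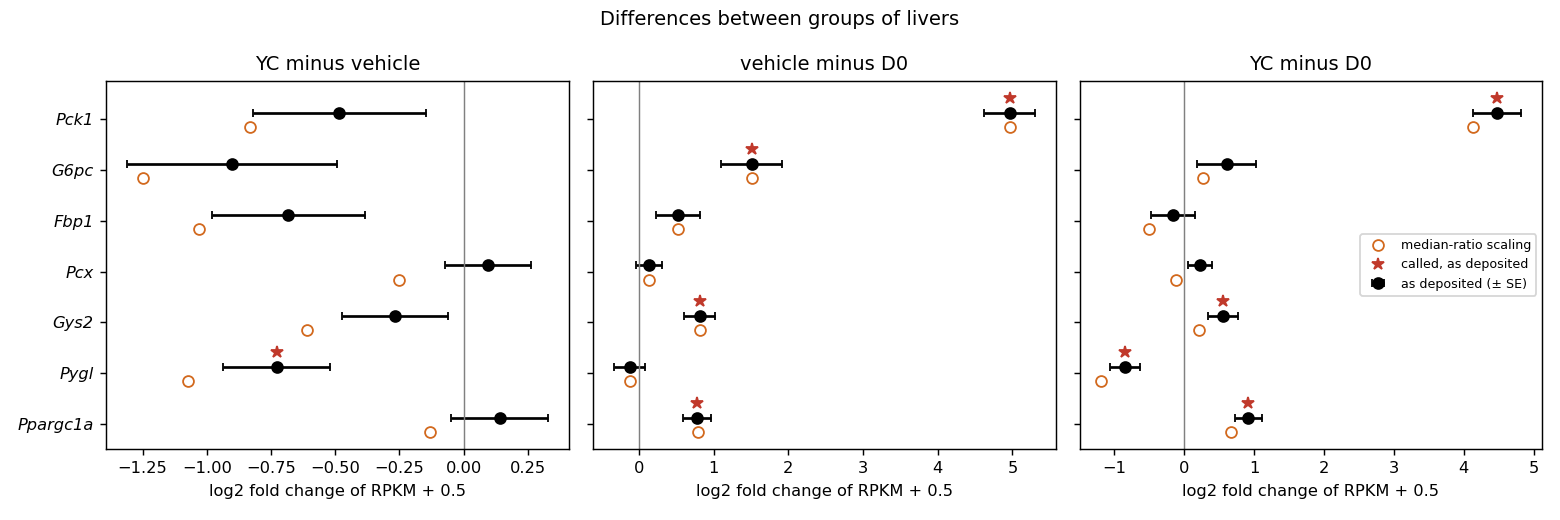
Log2 differences of RPKM + 0.5 for the 7 genes in the 3 comparisons, as deposited (filled points with SE bars) and after median-ratio scaling (open points). Stars mark genes called as deposited, and the panels have different horizontal axes. In YC minus vehicle every open point lies to the left of its filled point, and Pygl is the gene called, at -0.73.

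Gys2, the synthase that lays down liver glycogen, had 26.3 to 52.0 RPKM in YC livers (median 40.8), 36.5 to 79.7 in vehicle livers (median 43.1) and 16.8 to 42.7 in D0 livers (median 26.0). All 3 ranges overlapped. Vehicle livers (n = 8) averaged 47.4 ± 14.2 RPKM and D0 livers (n = 7) 27.3 ± 10.1 (SD), and Gys2 was called higher in vehicle livers by 0.82 ± 0.21 on the log2 scale (limma adjusted p = 0.00177). YC livers averaged 39.3 ± 10.1 (SD, n = 7) and were also called higher than D0 livers, by 0.55 ± 0.21 (limma adjusted p = 0.0331). That call was lost with median-ratio scaling, at 0.21 (adjusted p = 0.477), and with quantile normalization, at 0.34 (adjusted p = 0.228). It was also lost with D0 4, 5 or 6, or YC 1, 2, 3 or 4, left out in turn, at 0.45 to 0.53. YC minus vehicle, -0.27 ± 0.21, did not pass (limma adjusted p = 0.289), and without YC 6 and YC 7 it was -0.063 (limma adjusted p = 0.817). With median-ratio scaling of all livers it was -0.61, and Gys2 was called lower in YC livers (limma adjusted p = 0.0447).

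Pygl, the phosphorylase that releases glucose units from liver glycogen, was the 1 gene of the 7 that was called between YC and vehicle livers. It had 40.0 to 123 RPKM in YC livers (median 51.0), 89.7 to 135 in vehicle livers (median 115) and 98.4 to 168 in D0 livers (median 115). YC 1, 2, 6 and 7 had 40.0 to 51.0 and lay below every liver of the other groups, while YC 3, 4 and 5 had 100 to 123 and lay among them. YC livers averaged 73.8 ± 34.7 RPKM, vehicle livers 112 ± 15.0 and D0 livers 123 ± 23.8 (SD, n = 7, 8 and 7). Pygl was lower in YC livers than in vehicle livers by a log2 difference of -0.73 ± 0.21 (limma adjusted p = 0.00598), and lower than in D0 livers by -0.85 ± 0.22 (limma adjusted p = 0.00188). Over 24 other settings the first difference ran between -1.07 and -0.50 and kept its call (limma adjusted p between 0.000721 and 0.0441). Without YC 6 and YC 7 it was -0.50 (limma adjusted p = 0.0441). Vehicle minus D0 was -0.12 ± 0.21 (limma adjusted p = 0.627).

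Ppargc1a, the coactivator, was the least abundant of the 7. It had 1.31 to 2.83 RPKM in YC livers (median 2.05), 1.04 to 2.83 in vehicle livers (median 1.86) and 0.57 to 1.24 in D0 livers (median 0.72). All 7 YC livers and 5 of 8 vehicle livers lay above all D0 livers, and the YC and vehicle ranges overlapped almost wholly. The means were 2.11 ± 0.56 RPKM in YC livers, 1.92 ± 0.76 in vehicle livers and 0.88 ± 0.30 in D0 livers (SD, n = 7, 8 and 7). It was called higher in vehicle livers than in D0 livers by 0.78 ± 0.19 on the log2 scale (limma adjusted p = 0.00124). YC livers were higher than D0 livers by 0.92 ± 0.20 (limma adjusted p = 0.000378), which quantile normalization reduced to 0.39 with no call (adjusted p = 0.0849). YC minus vehicle was 0.14 ± 0.19 (limma adjusted p = 0.551) and changed sign with median-ratio scaling, to -0.13, while without YC 6 and YC 7 it was 0.24 (limma adjusted p = 0.331). At this level the added 0.5 understates fold changes.

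YC livers differed among themselves in the same direction for several of the genes. YC 6 and YC 7, lowest in Fah, were also the lowest of the YC livers in Pck1 (379 and 431 RPKM), G6pc (29.9 and 40.3), Fbp1 (166 and 141), Pcx (77.8 and 64.2) and Gys2 (26.3 and 27.0). The 4 YC livers with the least Fah, YC 1, 2, 6 and 7 at 31.5 to 128 RPKM, were those with the least Pygl. Igfbp1, a secreted protein of fasting liver that is known to rise when insulin signalling falls, was highest in the same 4 livers, at 444 to 866 RPKM, beside 170 to 322 in YC 3, 4 and 5. No test was made between these sets of YC livers, since they were seen in the data and the labels do not separate them.

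**Figure D3:**
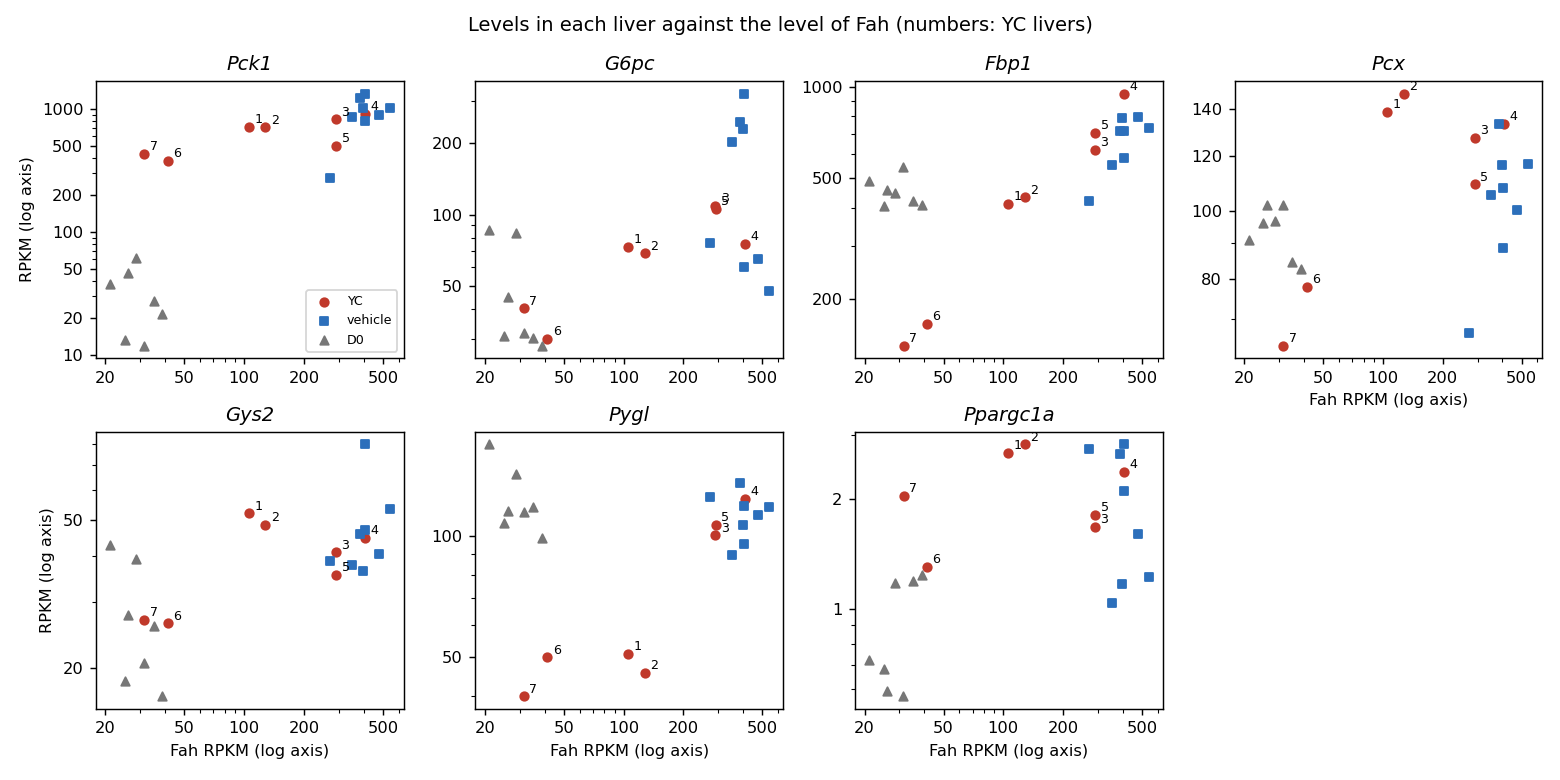
RPKM of each of the 7 genes in every liver (vertical, log axis) against Fah RPKM (horizontal, log axis), with YC livers numbered. YC 1, 2, 6 and 7 have the lowest Fah of the YC livers and lie at 40.0 to 51.0 RPKM of Pygl, below every vehicle and D0 liver.

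Ratios of opposed enzymes were taken within each liver as log2 of RPKM + 0.5 of one gene over RPKM + 0.5 of the other, so that the scaling of a library largely cancels except where a gene is near the added 0.5. For the 3 comparisons 6 of them are given, as differences in mean log2 ratio with exact two-sided permutation tests and Benjamini-Hochberg adjustment over the 21 tests made on 7 such ratios. The smallest p these designs allow is 0.000155 for 7 against 8 livers and 0.000583 for 7 against 7.

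Pck1 is opposed by Pklr, the liver pyruvate kinase that sends phosphoenolpyruvate back to pyruvate. The log2 ratio of Pck1 over Pklr was between 4.00 and 6.40 in YC livers, between 3.29 and 4.94 in vehicle livers and between -0.73 and 1.72 in D0 livers. Every transplanted liver lay above every D0 liver. The difference was 3.85 for vehicle minus D0 (exact permutation test, adjusted p = 0.00109) and 4.62 for YC minus D0 (exact permutation test, adjusted p = 0.00175), and 0.77 for YC minus vehicle, which did not pass (exact permutation test, adjusted p = 0.0718) but passed without YC 5, at 0.97 (adjusted p = 0.0154). Without YC 6 and YC 7 it was 0.48 (exact permutation test, adjusted p = 0.244). In YC minus vehicle the ratio and Pck1 itself thus had opposite signs. Pklr averaged 19.7 ± 13.3 RPKM in YC livers and 39.2 ± 11.4 in vehicle livers (SD, n = 7 and 8).

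Fbp1 is opposed by Pfkl, the liver phosphofructokinase. The log2 ratio of Fbp1 over Pfkl was between 2.97 and 5.60 in YC livers, between 4.81 and 5.76 in vehicle livers and between 4.80 and 5.70 in D0 livers, and 5 of 7 YC livers lay below all vehicle livers. It was lower in YC livers, by -1.12 against vehicle livers (exact permutation test, adjusted p = 0.0297) and by -1.15 against D0 livers (exact permutation test, adjusted p = 0.0367). Without YC 6 and YC 7 these were -0.69 and -0.72, with no call. With 1 liver left out in turn, the call against vehicle livers was lost for vehicle 2 and 8 and YC 1, 2, 6 and 7, at -1.10 to -0.92, and that against D0 livers for D0 1, 2, 4, 5 and 6 and YC 1, 2, 6 and 7, at -1.15 to -0.95. Vehicle minus D0 was -0.03 (exact permutation test, adjusted p = 0.896).

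Pcx shares its substrate pyruvate with pyruvate dehydrogenase, of which Pdha1 is a subunit. The log2 ratio of Pcx over Pdha1 was between 1.13 and 2.69 in YC livers, between 1.49 and 2.94 in vehicle livers and between 1.45 and 2.32 in D0 livers. It was higher in vehicle livers than in D0 livers by 0.62 (exact permutation test, adjusted p = 0.0286), with 7 of 8 above all D0 livers. YC minus vehicle was -0.41 and YC minus D0 0.21, and neither passed (exact permutation test, adjusted p = 0.207 and 0.499). YC minus vehicle passed without vehicle 1, at -0.57 (exact permutation test, adjusted p = 0.0377), and was -0.048 without YC 6 and YC 7 (exact permutation test, adjusted p = 0.928). YC minus D0 passed without YC 6 and YC 7, at 0.57 (exact permutation test, adjusted p = 0.00994).

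For glycogen, the log2 ratio of synthase to phosphorylase, Gys2 over Pygl, was between -1.57 and 0.08 in YC livers, between -1.67 and -0.57 in vehicle livers and between -2.52 and -1.84 in D0 livers. No transplanted liver reached down to the D0 range. The ratio was higher by 0.94 in vehicle livers (exact permutation test, adjusted p = 0.00109) and by 1.402 in YC livers (exact permutation test, adjusted p = 0.00175) than in D0 livers, and the calls held in all 18 other settings of each. YC minus vehicle was 0.46 and did not pass (exact permutation test, adjusted p = 0.157).

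Pygb is the phosphorylase isoform known from brain and fetal tissue. It had 10.3 to 26.5 RPKM in YC livers (median 22.6), 4.71 to 15.0 in vehicle livers (median 8.80) and 1.77 to 2.50 in D0 livers (median 2.24). The log2 ratio of Pygl over Pygb was between 0.78 and 2.64 in YC livers, between 3.02 and 4.70 in vehicle livers and between 5.22 and 6.20 in D0 livers, 3 ranges with no overlap. It was lower in YC livers than in vehicle livers by -1.91 (exact permutation test, adjusted p = 0.00109) and than in D0 livers by -3.73 (exact permutation test, adjusted p = 0.00175), and lower in vehicle livers than in D0 livers by -1.82 (exact permutation test, adjusted p = 0.00163). Bile duct and neutrophil marker levels also differed between these groups, as given above, and their part in the Pygb level was not tested. The ratio of Gys2 over Gys1, the muscle-type synthase, differed by -0.45 between YC and vehicle livers, by 0.48 between vehicle and D0 livers and by 0.03 between YC and D0 livers, and none passed (exact permutation test, adjusted p = 0.157, 0.171 and 0.896). Without vehicle 3 the first and second passed, at -0.64 and 0.67 (exact permutation test, adjusted p = 0.00544 and 0.0367). That liver had the highest Gys1 of the vehicle livers, 3.64 RPKM beside a median of 0.92. It was also highest in the muscle-type phosphorylase Pygm, named after its values were seen, at 27.0 beside a median of 0.94. The source of these transcripts in vehicle 3 was not tested. The Gys2 over Gys1 difference between YC and D0 livers changed sign without YC 6 and YC 7, to -0.005, and with 0.1 in place of 0.5 added, to -0.15.

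**Figure D4:**
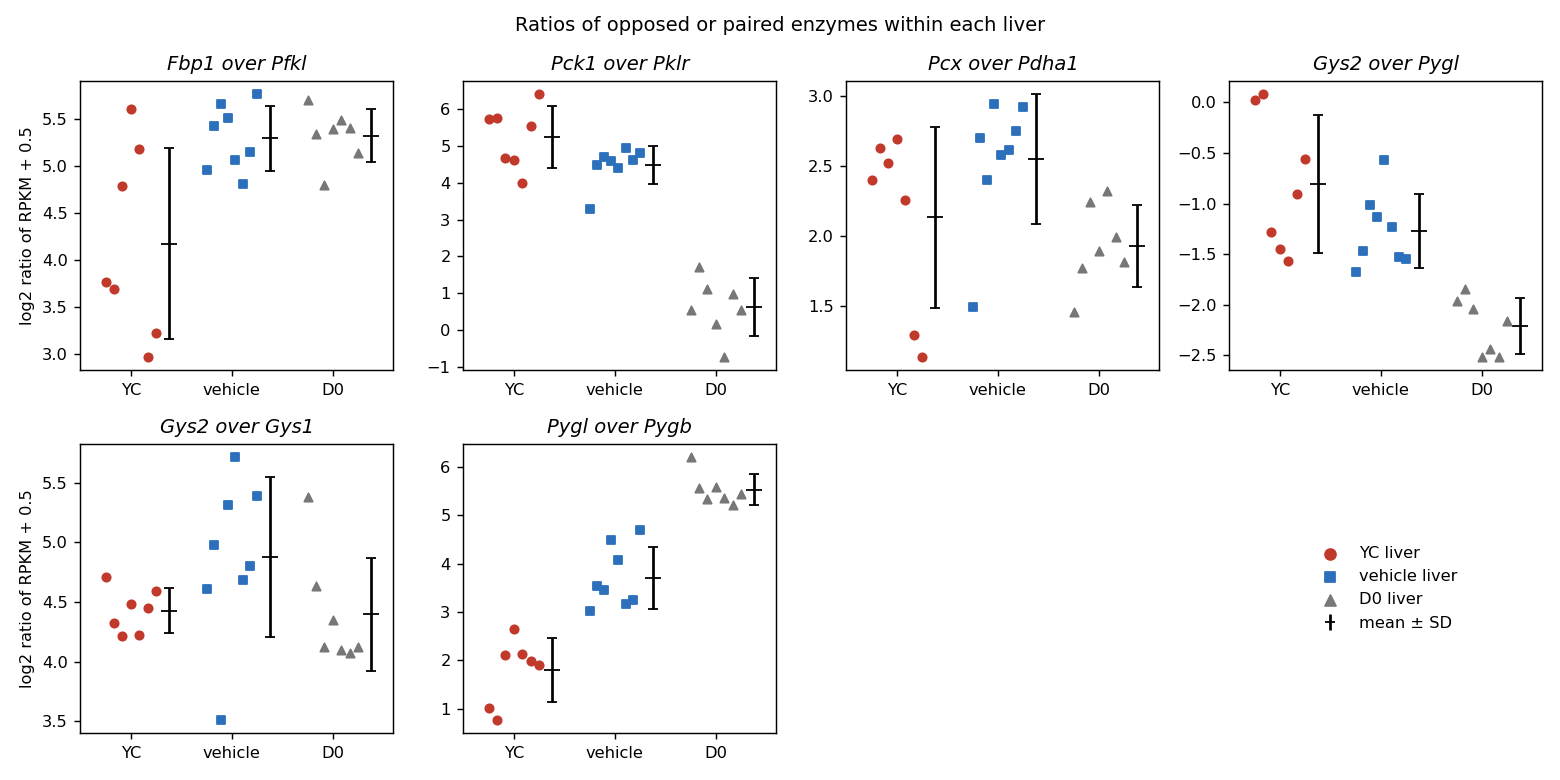
Log2 ratios of opposed or paired enzymes in every liver, with YC at the left, vehicle in the middle and D0 at the right of each panel. Points are livers, and bars are the group mean ± SD. Pygl over Pygb forms 3 separate bands, between 0.78 and 2.64 in YC livers, between 3.02 and 4.70 in vehicle livers and between 5.22 and 6.20 in D0 livers.

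The rest of the pathway was read from 4 lists of genes, of which the shares called are to be set beside the shares of all genes given above. Of 25 other gluconeogenic steps, 7 were called higher and 4 lower in YC livers than in vehicle livers (median log2 difference 0.21, beside 0.31 over all genes), and 2 higher and 7 lower after median-ratio scaling. Vehicle minus D0 gave 9 higher and 1 lower (0 lower without D0 1, 2 or 5 or vehicle 3, 4 or 7 in turn, and 2 lower without D0 4 or 6), and YC minus D0 16 higher and 4 lower, or 10 and 5 after that scaling. Fbp2, the muscle-type bisphosphatase, had 3.88 ± 2.03 RPKM in YC livers and 0.56 ± 0.75 in vehicle livers (SD, n = 7 and 8), a log2 difference of 2.11 ± 0.29 (limma adjusted p = 5.87e-06). Its level in YC livers was thus a small part of that of Fbp1. Among vehicle livers Fbp2 was highest in vehicle 3, at 2.35 RPKM, beside a median of 0.25. Reversible steps shared with glycolysis were higher in YC livers, with Pgam1, a phosphoglycerate mutase, at 0.82 ± 0.15, Mdh2, the mitochondrial malate dehydrogenase, at 0.78 ± 0.18, and Gpi1, the glucose phosphate isomerase, at 0.79 ± 0.18 (limma adjusted p = 0.000114, 0.000941 and 0.00109). Mdh2 and Gpi1 lost their calls with median-ratio scaling, at 0.43 and 0.44. Tat, a tyrosine aminotransferase induced by glucocorticoids, was lower at 306 ± 143 RPKM in YC livers, against 587 ± 172 in vehicle livers (log2 difference -1.06 ± 0.26, limma adjusted p = 0.00165), and without YC 6 and YC 7 the difference was -0.63 (limma adjusted p = 0.00873). The abundant lactate dehydrogenase Ldha, at -0.15 ± 0.17, and the enolase Eno1, at 0.28 ± 0.16, did not pass, and Ldha was at 0.069 without YC 6 and YC 7. Ldha was called lower with median-ratio scaling, at -0.50 (limma adjusted p = 0.0278). Eno1 was called higher with quantile normalization, at 0.43 (limma adjusted p = 0.0397).

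Of 25 other glycogen genes 23 were tested, and Phkg1 and Ppp1r3d fell to the filter. In YC minus vehicle 11 were called higher and 1 lower (median 0.40), or 5 and 3 after median-ratio scaling. The number lower was 0 without YC 1, YC 2 or YC 7 in turn or without YC 6 and YC 7 together, and 2 without vehicle 1. Vehicle minus D0 gave 5 higher and 9 lower, and YC minus D0 11 higher and 5 lower, or 6 and 8 after scaling. The kinase Gsk3b, which inhibits glycogen synthase, was higher in YC livers than in vehicle livers by 0.81 ± 0.12 (limma adjusted p = 1.31e-05). Mean Gsk3b was 6.30, 3.37 and 6.74 RPKM in YC, vehicle and D0 livers. The phosphoglucomutases Pgm1 and Pgm2 were higher in YC livers than in vehicle livers by 0.97 ± 0.15 and 0.89 ± 0.15, and Pygb by 1.18 ± 0.22 (limma adjusted p = 2.82e-05, 4.98e-05 and 0.000134). Mean Pgm2 in D0 livers, 176 RPKM, also lay above that in vehicle livers, 143, while those of Pgm1 and Pygb lay below. The branching enzyme Gbe1 did not differ by the test between YC and vehicle livers, at 0.04 ± 0.13 (-0.15 without YC 6 and YC 7), with 41.0 ± 10.8 RPKM in YC livers and 39.0 ± 3.37 in vehicle livers, while D0 livers had 73.6 ± 7.78. Ppp1r3c, a subunit that brings a phosphatase to glycogen, had 31.5 ± 12.5 RPKM in YC livers and 24.3 ± 9.66 in vehicle livers, with no call at 0.38 ± 0.25 (0.099 without YC 6 and YC 7), and 133 ± 32.0 in D0 livers. For vehicle minus D0 the log2 difference was -0.91 ± 0.13 for Gbe1 and -2.49 ± 0.25 for Ppp1r3c (limma adjusted p = 3.09e-06 and 3.18e-08), the opposite sign to Gys2. Stbd1, a glycogen-binding protein named after its values were seen, had 42.8 ± 4.67 RPKM in YC livers, 48.1 ± 11.1 in vehicle livers and 7.04 ± 1.36 in D0 livers.

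Of 25 regulators of glucose output, 11 were called higher and 1 lower in YC minus vehicle (median 0.32), or 5 and 4 after median-ratio scaling, and the number lower was 0 without YC 6 and YC 7 and 2 without vehicle 1. Vehicle minus D0 gave 5 higher and 10 lower, and YC minus D0 7 higher and 6 lower, or 6 and 11 after scaling. Igfbp1 had 492 ± 270 RPKM in YC livers, 101 ± 50.4 in vehicle livers and 46.4 ± 21.7 in D0 livers (SD, n = 7, 8 and 7), and 6 of 7 YC livers lay above all vehicle livers. Its log2 difference was 2.25 ± 0.40 for YC minus vehicle (limma adjusted p = 9.1e-05). The hormone Fgf21 was higher by 1.69 ± 0.31 and the pyruvate dehydrogenase kinase Pdk4, which rises in fasting, by 1.47 ± 0.34 (limma adjusted p = 0.000151 and 0.00126). Crtc2, a coactivator of CREB, and Foxo3, a forkhead factor, were higher by 0.52 ± 0.11 and 0.51 ± 0.12 (limma adjusted p = 0.000493 and 0.0015), and both calls were lost with median-ratio scaling, at 0.19 and 0.18. The hepatocyte transcription factors Cebpa and Cebpb did not pass, at -0.25 ± 0.17 and -0.39 ± 0.25. Both were called lower with median-ratio scaling, at -0.60 and -0.74 (limma adjusted p = 0.022 and 0.0318). Array weights also gave calls, at -0.455 and -0.58 (limma adjusted p = 0.011 and 0.014). Without vehicle 1 Cebpb was called, at -0.59 (limma adjusted p = 0.0187).

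Of 19 genes listed for opposing glycolytic steps, 8 were called higher and 5 lower in YC minus vehicle (median 0.27), or 3 and 6 after median-ratio scaling. The list also holds regulators, such as Mlxipl, and inhibitors, such as Pdk1, so its counts mix functional directions. Vehicle minus D0 gave 12 higher and 4 lower, and YC minus D0 11 higher and 3 lower, or 9 and 4 after scaling. The glucose transporter Slc2a1, widespread outside hepatocytes, was higher in YC livers than in vehicle livers by 2.00 ± 0.24, the pyruvate kinase Pkm by 1.90 ± 0.28 and the platelet-type phosphofructokinase Pfkp by 0.90 ± 0.20 (limma adjusted p = 1.34e-06, 1.22e-05 and 0.000686). Mean RPKM of Slc2a1 in YC, vehicle and D0 livers was 23.7, 5.60 and 15.5, so vehicle livers had the lowest mean. For Pkm and Pfkp the D0 means were lowest, at 15.3 and 1.26. Pdk1, a pyruvate dehydrogenase kinase, was lower in YC livers than in vehicle livers by -1.09 ± 0.20 (limma adjusted p = 0.000104). Mlxipl, the glucose-sensing factor ChREBP, and its target Txnip did not pass, at 0.56 ± 0.42 and 0.16 ± 0.27, but without YC 6 and YC 7 Mlxipl was called, at 1.31 (limma adjusted p = 0.00083), while Txnip was at 0.32 (limma adjusted p = 0.378).

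**Figure D5:**
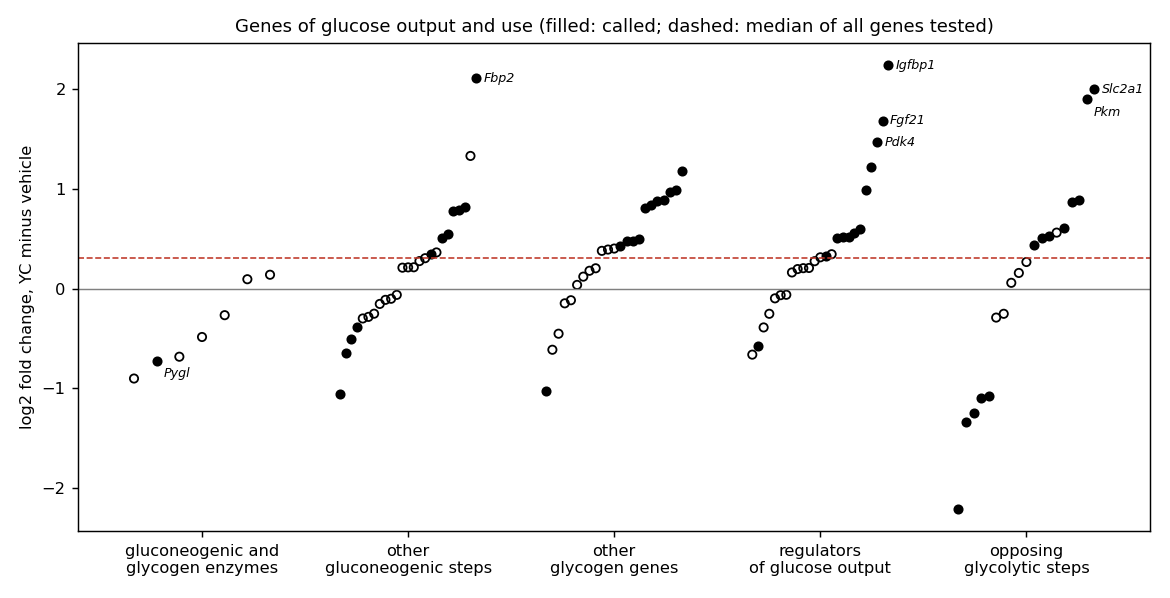
Log2 differences of RPKM + 0.5, YC minus vehicle (vertical), for the 7 genes and the 4 lists, ordered by value within each. Filled points were called by limma, and the dashed line is the median of all genes tested, 0.31. The 7 genes lie below that line, with Pygl called at -0.73, while Igfbp1 is the highest point at 2.25.

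Among all genes tested, those whose log2 level over the 22 livers was most like that of each of the 7 were taken by Pearson's r, as a description over livers of 3 groups. For Pck1 they were Tnfaip8l1, Gne and Stbd1, with r of 0.97 to 0.96, and r of 0.63, 0.69 and 0.41 once values were centred on group means. Fbp1 went with Hgfac, H2-Q10 and F12, with r of 0.94 to 0.95 before centring and 0.92 to 0.94 after it, and Pygl with Cpq, Afm and Ces1c, with r of 0.95 to 0.96 before and 0.91 to 0.94 after. Hgfac and F12 encode plasma proteases and Afm a plasma protein, all made by hepatocytes. The genes nearest to Pcx were Oplah, Acad10 and Lbp, with r of 0.81 to 0.86, and those nearest to Gys2 were Bhlhe40, Plin5 and Txnip, with r of 0.83 to 0.85. G6pc was closest to Ero1lb, Ccdc22 and Serpina1e, with r of 0.85 to 0.86, and Ppargc1a to Pdzrn3, Zfp324 and Inpp1, with r of 0.85 to 0.86. After centring, r was 0.80 to 0.88 for Pcx, 0.71 to 0.78 for Gys2, 0.76 to 0.79 for G6pc and 0.63 to 0.65 for Ppargc1a. H2-Q10, Ces1c and Serpina1e belong to families of near-identical copies, and their single values may hold reads of their neighbours. The livers in these correlations share depth and composition within a library, and no p is given.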

How the data were processed

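The authors deposited 1 table of RPKM values, with 1 column for each of 22 libraries of poly(A)-selected liver RNA. The submitters' processing notes list TopHat 1.4.1, Cufflinks 1.3.0 and build mm10. Not given in the sources used here are the step that made the values, the annotation and the use of strand, and without strand reads of overlapping or antisense genes cannot be told apart.

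The filter kept 12537 genes that reached 0.5 RPKM in 7 or more libraries. Limma 3.58.1 (trend and robust, statmod 1.5.0, under R 4.3.3) was fitted to log2(RPKM + 0.5), and the 3 groups shared 1 model of all libraries. P-values were two-sided, adjusted by Benjamini-Hochberg over all genes, with calls under 0.05. Fold changes on this scale are understated for low genes. Within-liver ratios were compared by exact two-sided permutation tests (Python 3.11.15, numpy 2.4.6, pandas 2.3.3, scipy 1.17.1). Figures used matplotlib 3.10.9. The scripts were tested on simulated data.

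The steps between low values of 280 genes with 1 transcript gave the depth of each library, and at a tolerance of 0.02 too few values were whole for a count test. Precision was therefore taken from the spread between livers. The closest pair of libraries, vehicle 2 and vehicle 4, still had a chi-square of 1.71 per gene, so none was counted as a repeat. Samples were grouped by the treatment and title labels.

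The members, the gene lists and the tests were chosen with earlier results of these data known. From each list the text names up to 5 genes called in YC minus vehicle with the smallest adjusted p and up to 2 uncalled genes with the highest mean RPKM, and for each member the 3 genes with the highest Pearson's r. Of the genes and ratios so chosen, 2 genes and 1 ratio are not reported here. Other genes named are partners in the ratios, markers, Pygm and Fah. Promoters came from RefSeq for GRCm38.p6. Alternatives were other pseudocounts, no filter, median-ratio and quantile scaling, array weights, a fit of 2 groups, a replicate block and libraries left out.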

Additional observations from a re-analysis of the deposited data

Results flagged for a closer look

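Group by group, 39 sets of 7 or 8 livers were examined for a single liver far from the others, for the 7 genes and the 6 ratios, and 5 were found, where chance flags about 1 in 20. Vehicle 1 was far below the other vehicle livers in Pck1, at 274 RPKM, in the log2 ratio of Pck1 over Pklr, at 3.29, and in that of Pcx over Pdha1, at 1.49. The same liver had the lowest Fah (271 RPKM) and the lowest Fbp1 (420 RPKM) of the vehicle livers. D0 1 was far above the other D0 livers in the log2 ratio of Gys2 over Gys1, at 5.38, and in that of Pygl over Pygb, at 6.20.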

How the results depend on the processing

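Over the 7 genes, 452 of the differences recomputed under alternatives kept their direction and their side of the threshold, 20 passed it newly, 10 lost it and 8 changed sign. For the named list genes the counts were 598, 9, 6 and 11. The number of the 7 genes called lower in YC minus vehicle, 1 as deposited, was 4 with median-ratio scaling, 2 with array weights and 1 to 4 with 1 liver left out. The number called higher, 0 as deposited, was 1 with array weights and 1 without YC 6 and YC 7. The number called higher in YC minus D0, 3 as deposited, was 1 with quantile normalization and 5 with array weights. With quantile normalization 2916 of 12537 genes were called higher in YC minus D0. For array weights and livers left out the shares of all genes called are not given. The cause of the changes in these counts was not tested.

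Log2 differences that changed sign in YC minus vehicle were, with median-ratio scaling, Pcx at -0.25, Ppargc1a at -0.13, Eno1 at -0.072, Gbe1 at -0.31 and Txnip at -0.19, with quantile normalization Ppargc1a at -0.24, Ldha at 0.061 and Gbe1 at -0.16, with array weights Ldha at 0.12 and Gbe1 at -0.074, and without YC 6 and YC 7 Ldha at 0.069 and Gbe1 at -0.15. In YC minus D0 they were Pcx at -0.11 with median-ratio scaling and Fbp1 at 0.058 with array weights and 0.40 without YC 6 and YC 7. With 1 liver left out, Gbe1 ran between -0.06 and 0.092 in YC minus vehicle and Fbp1 between -0.37 and 0.092 in YC minus D0.

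Same-numbered libraries did not deviate together (correlations of their deviations between -0.386 and 0.227), so the replicate numbers were not taken to pair the samples. With the replicate number as a block, the counts of the 7 genes called stayed at 1 lower and 0 higher in YC minus vehicle. For the ratios the block was an exact sign-flip test on differences between same-numbered livers, which left out vehicle 8. The log2 ratio of Fbp1 over Pfkl lost its call, at -1.05 in YC minus vehicle (exact sign-flip test, adjusted p = 0.109) and -1.15 in YC minus D0 (exact sign-flip test, adjusted p = 0.0895). Leaving out vehicle 8 alone also gave -1.05 with no call in YC minus vehicle (exact permutation test, adjusted p = 0.0591). No other call on the 7 genes or their ratios changed with the block.

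Log2 ratios that moved were, without YC 6 and YC 7, Fbp1 over Pfkl at -0.69 in YC minus vehicle, and in YC minus D0 Fbp1 over Pfkl at -0.72, Pcx over Pdha1 at 0.57 and Gys2 over Gys1 at -0.005. With pseudocount 0.1, Gys2 over Gys1 in YC minus D0 was -0.15. With 1 liver left out, YC minus vehicle ran over -1.36 to -0.92 for Fbp1 over Pfkl, 0.57 to 0.97 for Pck1 over Pklr, -0.57 to -0.25 for Pcx over Pdha1 and -0.64 to -0.33 for Gys2 over Gys1. Vehicle minus D0 ran over -0.12 to 0.039 for Fbp1 over Pfkl and 0.36 to 0.67 for Gys2 over Gys1, and YC minus D0 over -1.39 to -0.95 for Fbp1 over Pfkl and -0.022 to 0.195 for Gys2 over Gys1. Of 24 counts of called genes in the 4 lists, median-ratio scaling moved 11 by over 1.5 times and quantile normalization 9, while 3 moved with array weights, 1 in the fit of 2 groups, 1 with the block, 2 without YC 6 and YC 7 (of the 16 counts that involve YC livers) and 0 with the other pseudocounts or without the filter. With 1 liver left out in turn, 13 recomputed counts moved, each a count of genes lower that was 1 as deposited.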
